A study of Mus musculus with 6 samples.

Results

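The genes described here encode proteins of the mitochondrial ribosome, and they were taken as all non-control probes whose gene name in the array files begins with Mrpl or Mrps and a number. The rule found 76 genes, 47 named for the large and 29 for the small ribosomal subunit, among 32077 genes tested. They were read by 100 of 55681 probes. Expression was measured in satellite cells, the resident stem cells of skeletal muscle, from male C57BL/6 mice. Cells were sorted as positive for integrin alpha7 and CD34, and cells with CD31, CD45, CD11b or Sca1 were gated out. The young group held 3 samples, from animals of 3, 2 and 3 months for replicates 1, 2 and 3, and the adult group held 3 samples, all from animals of 6 months. No group was treated or genetically altered, per the labels, and how many animals went into a sample is not stated there.

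The mitochondrial ribosome is a separate ribosome inside mitochondria that translates the few proteins still encoded by mitochondrial DNA, which are core subunits of the respiratory chain. All of its proteins are encoded in the nucleus, made by cytosolic ribosomes and imported. Its large subunit forms peptide bonds and holds the exit tunnel, and its small subunit binds the messenger and decodes it. Resting satellite cells have few mitochondria, and mitochondrial mass is known to grow when they activate and differentiate.

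Levels are given as log2 of the background-subtracted signal over the 75th percentile of the same array, so that 0 is the level of a probe at that percentile. Differences are adult minus young on this log2 scale. Each gene was read by its brightest probe, and all 76 genes were well above background on all 6 arrays. Their mean levels lay between the 23.2nd and the 96.4th percentile of all genes tested, with a median at the 75.7th. A probe's brightness also depends on its sequence, so levels of different genes are not set against each other.

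Pax7, the transcription factor that defines satellite cells, stood at a level of 3.75 in young and 3.41 in adult cells. Across the arrays 41528 to 49957 probes were well above background, and each adult array had more of them than any young array. Marker calls are those of the fit over all genes given below, in which 8.45% of all genes tested were lower in adult and 20% higher. Of 12 satellite cell markers 6 were lower in adult and 0 higher. Their summed signal (linear, relative to the 75th percentile) was 183.6 to 202.9 in young and 131.3 to 176.3 in adult samples. Of 12 markers of differentiating myoblasts and myofibres 6 were lower and 0 higher, with sums of 39.6 to 57.8 in young and 19.5 to 25.02 in adult. Of 10 markers of fibro-adipogenic progenitors, connective tissue cells of muscle, 9 were tested, with 2 lower and 1 higher, and the sums were 74.6 to 81.0 in young and 29.2 to 44.3 in adult, with Pdgfra not above background on any array. The sums overlapped between the groups for 11 leukocyte markers (0 lower, 3 higher), 9 endothelial (0 and 0), 10 mural (1 and 5), 8 adipocyte (7 tested, 0 and 4, Lep not above background on any array) and 6 erythroid markers (4 tested, 0 and 0). The part of these cell types in the differences below was not tested. In such bulk samples, fewer cells of a type and less RNA per cell cannot be told apart.

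As a group, the mitochondrial ribosomal protein genes had lower levels in adult satellite cells. By limma with Benjamini-Hochberg adjustment over all genes at a threshold of 0.05, 40 of the 76 members fell in adult cells, 0 rose and 36 did not pass. Over all genes tested, 8.45% were called lower and 20% higher in adult. Only 18725 of the 32077 genes tested had a current RefSeq symbol, and of those 11.7% were lower and 15.8% higher. The difference was negative for 73 of 76 members (96.1%), against 40.6% of all genes and 49.4% of those with a RefSeq symbol. The median difference of the members was -0.90, where that of all genes was 0.30 and that of genes with a RefSeq symbol 0.02. The balance over all genes depends on the scaling: 2709 were called lower and 6430 higher here, 8812 and 3446 with median scaling (median -0.24), and 2779 and 2874 with quantile normalization (median -0.06). The members' median minus that of all genes was -1.21 here. Median scaling cannot change this gap, since both scalings shift all genes of an array alike. The gap was -0.86 with quantile normalization, -0.84 with cyclic loess and -0.78 with the deposited series matrix values. Among genes above the 75th percentile it was -0.69. The highest adult value lay below the lowest young value in 61 members. This pattern was seen in 21.6% of all genes and in 27.7% of those with a RefSeq symbol. The lowest adult value lay above the highest young value in 2 members, against 34% of all genes. The 40 falls ranged from 1.54-fold to 3.03-fold, with adjusted p from 0.0174 to 0.0467. An unadjusted limma p under 0.05 was found for 57 members (75%), against 48.1% of all genes.

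The number of calls rested on having all 6 arrays, while the size of the shift moved little when any was left out. Without young replicates 1, 2 and 3, 1, 27 and 6 members were called lower, and without adult replicates 1, 2 and 3, 1, 5 and 0. At the same time the median difference stayed between -0.79 and -0.99, with 72 or 73 members negative. No member kept its call with every single array left out, and none of the falls named below is an exception. The arrays lay in 2 rows of 1 slide. Within row 1 (2 young, 1 adult) the members' median difference was -0.86 with 71 negative, and within row 2 (1 young, 2 adult) it was -1.01 with 72 negative.

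**Figure D1:**
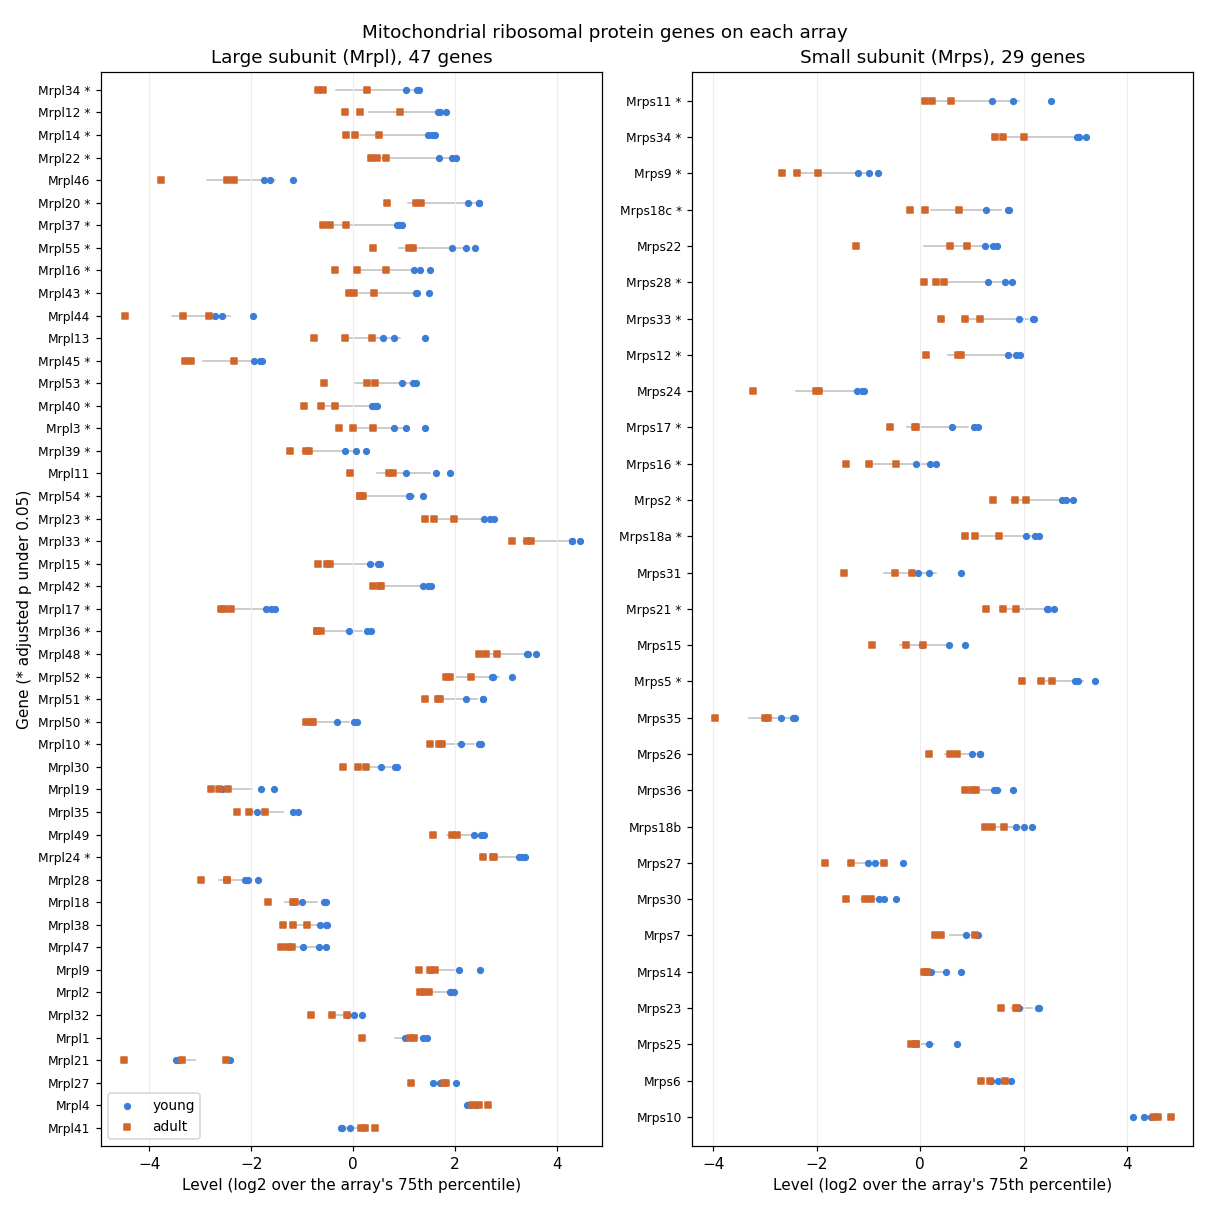
Level of each of the 76 genes on each array (log2 over the array's 75th percentile), with young samples as blue circles, adult samples as orange squares and a grey line joining the group means; genes are ordered by their difference, and a star marks an adjusted p under 0.05. In 61 genes all 3 adult values lie to the left of all 3 young values, and only Mrpl4, Mrps10 and Mrpl41, at the bottom, have a higher adult mean.

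Bright genes as a whole were also lower in adult cells, and most members are bright. All genes were split by mean level into 4 equal bins, bin 4 being the brightest, and 40 members lay in bin 4, 25 in bin 3, 10 in bin 2 and 1, Mrpl21, in bin 1. In bin 4, 25 of 40 members were called lower, where 18.9% of all genes of that bin were. In bin 3, 12 of 25 members were called lower, against 10.6% of its genes, and in bin 2, 3 of 10, against 3.43%. All adult values lay below all young ones in 33 of the 40 members of bin 4 (82.5%), against 47.5% of its genes. In bin 3 this held for 20 of 25 members (80%), against 26.3% of its genes. The members' median difference was -0.94 in bin 4, -0.87 in bin 3 and -0.99 in bin 2, while all genes of those bins had medians of -0.31, -0.05 and 0.55. Only the medians were alike: within bin 4 the members ran from -1.60 to 0.35, with a middle range of -1.28 to -0.59, and the member of bin 1 differed by -0.35. Across the 76 members, level and difference had a Pearson correlation of 0.08 and a Spearman correlation of 0.03, given as a description of genes that share the same 6 arrays.

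**Figure D2:**
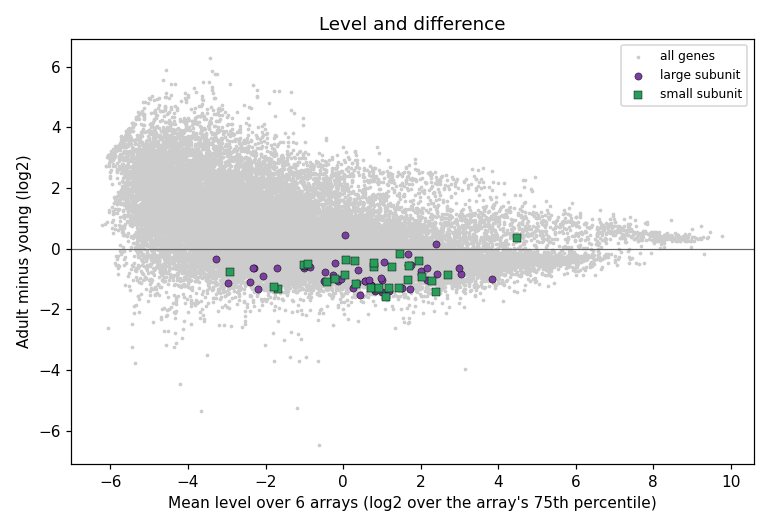
Mean level over the 6 arrays (x axis, log2 over the array's 75th percentile) against the difference adult minus young (y axis, log2) for all 32077 genes in grey, the large subunit in purple circles and the small subunit in green squares. The grey cloud bends from a median of 1.44 in bin 1 to -0.31 in bin 4, and 73 of 76 members lie below 0.

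The large and small subunits moved by similar amounts. Of 47 large subunit genes 27 fell (57.4%) and 20 did not pass. Their median difference was -0.89, with a middle range (25th to 75th percentile) of -1.10 to -0.62. Of 29 small subunit genes 13 fell (44.8%) and 16 did not pass, with a median of -0.92 and a middle range of -1.28 to -0.55. Over all genes tested 8.45% were called lower, and in the brightest bin 18.9%. On the single arrays the median level of the large subunit was 1.03, 1.16 and 1.36 in young and 0.09, 0.36 and -0.19 in adult replicates 1, 2 and 3. The small subunit's median level was 1.49, 1.38 and 1.39 in young and 0.71, 0.58 and 0.13 in adult. Neither subunit's medians overlapped between the groups. No test of the difference between the subunits was made, since the members were chosen with results of these data known. Structures of the mammalian mitochondrial ribosome place Mrps30 and Mrps18a in the large subunit despite their names, and Mrps36 is now known as a part of the ketoglutarate dehydrogenase complex. With the genes placed that way, 28 of 49 large and 12 of 26 small subunit genes fell, with medians of -0.89 and -0.97.

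**Figure D3:**
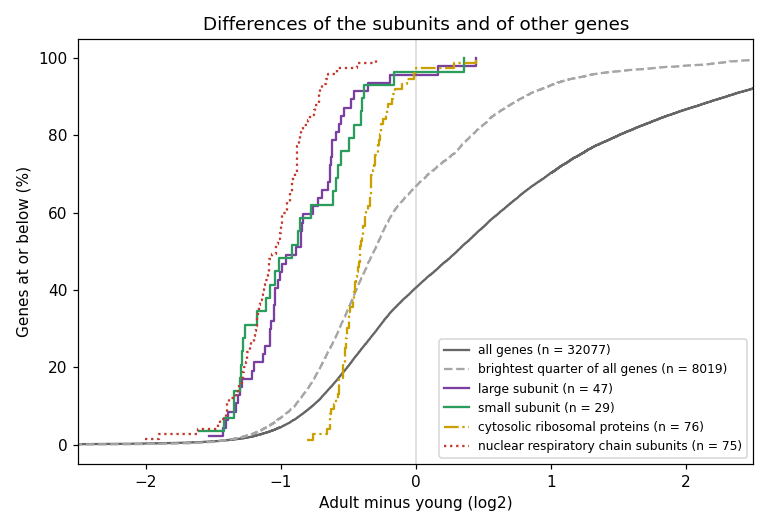
Cumulative share of genes (y axis, %) at or below each difference adult minus young (x axis, log2) for the 47 large and 29 small subunit genes, all 32077 genes, the 8019 genes of the brightest bin, 76 cytosolic ribosomal protein genes and 75 nuclear genes of the respiratory chain. The curves of the subunits cross each other, and their medians (-0.89 and -0.92) lie between those of the respiratory chain (-1.03) and the cytosolic ribosome (-0.41).

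Mrpl34, a small protein of the large subunit with a bacterial counterpart, had the largest large subunit fall. Its levels were 1.03, 1.29 and 1.24 in young and -0.69, 0.28 and -0.60 in adult replicates 1, 2 and 3. All adult values lay below all young ones, with adult replicate 2 nearest to them. The means were 1.19 ± 0.14 and -0.34 ± 0.54 (SD, n = 3 each), a fall of 2.88-fold (-1.53 ± 0.30 SE on the log2 scale, adjusted p = 0.0262 by limma). Its probe, on mm9 chromosome 8 from 73989526 to 73989585, was printed on 10 spots of each array, and the SD between the spots in use on an array was 0.028 to 0.085, which covers the noise of an array alone and not the spread between samples.

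Mrpl12 is the counterpart of the bacterial stalk protein that recruits translation factors, and it has also been described as a partner of the mitochondrial RNA polymerase. Its levels were 1.70, 1.82 and 1.66 in young and 0.14, 0.92 and -0.15 in adult, again with adult replicate 2 the highest of its group. The fall was 2.69-fold (-1.43 ± 0.31 SE on the log2 scale, adjusted p = 0.0287 by limma, probe on mm9 chromosome 11 from 120349740 to 120349799). Mrpl14, a core protein at the interface with the small subunit, had levels of 1.61, 1.46 and 1.54 in young and -0.14, 0.50 and 0.03 in adult. It was 2.65-fold lower (adjusted p = 0.0206), and its adult values spread more than its young ones. Mrpl22 and Mrpl4 are counterparts of the bacterial proteins that reach into the exit tunnel. Mrpl22 had levels of 1.67, 1.95 and 2.01 in young and 0.64, 0.36 and 0.46 in adult by its brightest probe and was 2.61-fold lower, with the smallest adjusted p of all members (0.0174). Its other probe differed by 0.02, and with the mean over both probes the difference was -0.68 (adjusted p = 0.0359).

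Mrpl20, which in bacteria helps the large subunit to assemble, stood at 2.25, 2.46 and 2.46 in young and 1.34, 1.22 and 0.67 in adult samples and was 2.49-fold lower (adjusted p = 0.0240). Mrpl37, a protein found only in mitochondrial ribosomes, stood at 0.96, 0.90 and 0.85 in young and -0.14, -0.59 and -0.46 in adult and was 2.46-fold lower (adjusted p = 0.0192). Both had narrow young groups that lay clear of every adult value. Mrpl55 stood at 2.38, 2.21 and 1.94 in young and 1.10, 1.17 and 0.39 in adult (2.44-fold lower, adjusted p = 0.0287). Mrpl16, which lies close to the site of peptide bond formation, stood at 1.5, 1.31 and 1.19 in young and 0.08, 0.64 and -0.36 in adult (2.32-fold lower, adjusted p = 0.0342). In both, adult replicate 3 was the lowest sample. Mrpl36, a very short conserved protein of the large subunit, stood at -0.09, 0.34 and 0.27 in young and at -0.63, -0.70 and -0.70 in adult, where the 3 samples hardly differed, and was 1.81-fold lower (adjusted p = 0.0311).

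Mrps11, a protein of the small subunit platform where the messenger leaves, had the largest fall of all members. Its levels were 2.53, 1.80 and 1.39 in young and 0.22, 0.60 and 0.09 in adult replicates 1, 2 and 3. The young samples spread widely, but the lowest of them still lay above every adult sample. The means were 1.91 ± 0.58 and 0.30 ± 0.27 (SD, n = 3 each), a fall of 3.03-fold (-1.60 ± 0.34 SE on the log2 scale, adjusted p = 0.0283 by limma, probe spanning an intron by its coordinates on mm9 chromosome 7 from 85933622 to 85935544). Mrps34, a protein found only in mitochondrial ribosomes and needed for a stable small subunit, stood at 3.07, 3.21 and 3.03 in young and 1.45, 2.01 and 1.59 in adult. It was 2.67-fold lower (adjusted p = 0.0194, probe on mm9 chromosome 17 from 25033156 to 25033215).

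Mrps12, the counterpart of the bacterial protein at the decoding site where streptomycin resistance arises, stood at 1.85, 1.70 and 1.93 in young and 0.73, 0.79 and 0.12 in adult (2.43-fold lower, adjusted p = 0.0251). Mrps9, whose bacterial counterpart reaches towards the transfer RNA, stood at -1.0, -0.81 and -1.20 in young and -2.37, -1.98 and -2.68 in adult (2.54-fold lower, adjusted p = 0.0242). Neither gene's groups overlapped. Mrps28 stood at 1.77, 1.31 and 1.64 in young and 0.07, 0.47 and 0.30 in adult (2.45-fold lower, adjusted p = 0.0217). Mrps33, found only in mitochondrial ribosomes, stood at 2.19, 2.17 and 1.90 in young and 0.86, 1.15 and 0.41 in adult (2.43-fold lower, adjusted p = 0.0254). Its other probe differed by -1.01, in the same direction.

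Mammals have 3 paralogues of the bacterial small subunit protein S18, and they sit at different places of the ribosome, so that Mrps18c is counted here as the bacterial counterpart and the others as mitochondrial. Mrps18c, which takes the bacterial position, stood at 1.27, 1.72 and 1.69 in young and -0.19, 0.75 and 0.09 in adult and was 2.54-fold lower (adjusted p = 0.0308). Mrps18a, which lies in the large subunit, stood at 2.05, 2.29 and 2.23 in young and 1.07, 1.52 and 0.87 in adult and was 2.06-fold lower (adjusted p = 0.0300). Mrps18b stood at 1.84, 2.00 and 2.16 in young and 1.26, 1.63 and 1.39 in adult, a difference of -0.58 ± 0.20 SE that did not pass (adjusted p = 0.0682), while its other probe differed by -0.99. The groups of each of the 3 paralogues did not overlap, and the differences between the paralogues were not tested. Mrps30, the other large subunit protein with a small subunit name, stood at -0.70, -0.79 and -0.47 in young and -0.94, -1.07 and -1.43 in adult and did not pass (difference -0.49 ± 0.21 SE, adjusted p = 0.116). Mrps36 stood at 1.79, 1.42 and 1.49 in young and 1.0, 0.86 and 1.07 in adult (difference -0.59 ± 0.19 SE, adjusted p = 0.0617).

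A protein with a bacterial counterpart belongs to the conserved core, and most of the others are found only in mitochondrial ribosomes, Mrps36 being an exception among them. Of 46 members with a counterpart 25 fell (54.3%), and of 30 without one 15 fell (50%), with medians of -0.90 and -0.91. Over all genes tested 8.45% were called lower. In the large subunit 15 of 30 conserved members (50%) and 12 of 17 mitochondrial ones (70.6%) fell, with medians of -0.79 and -1.04. In the small subunit the order was the other way. There 10 of 16 conserved (62.5%) and 3 of 13 mitochondrial members (23.1%) were called, with medians of -1.09 and -0.62. Subunits were taken by name here. The 13 thus include Mrps18a, which was called, and Mrps30 and Mrps36, which were not, though structures do not place them in the small subunit. These counts are descriptions of small sets and were not tested.

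Some bright members did not pass. Mrps10, a conserved protein of the small subunit head, stood at 4.47, 4.32 and 4.11 in young and 4.84, 4.52 and 4.6 in adult. Its adult values all lay above the young ones, by 0.35 ± 0.20 SE (limma adjusted p = 0.194). Mrpl4 stood at 2.30, 2.23 and 2.41 in young and 2.34, 2.47 and 2.65 in adult, with overlapping groups (difference 0.17 ± 0.18 SE, adjusted p = 0.475). Mrpl41, found only in mitochondrial ribosomes, lay in bin 3 and not among the brightest, and it was named after its values were seen. Its levels were -0.22, -0.25 and -0.06 in young and 0.15, 0.24 and 0.43 in adult, a difference of 0.45 ± 0.18 SE (adjusted p = 0.0981). Under scaling to the median of all probes these differences were -0.19 for Mrps10, -0.37 for Mrpl4 and -0.09 for Mrpl41, so their direction depends on the scaling. Mrpl49 stood at 2.51, 2.37 and 2.57 in young and 2.03, 1.95 and 1.57 in adult (difference -0.64 ± 0.20 SE, adjusted p = 0.0588). Mrps23 stood at 1.91, 2.27 and 2.30 in young and 1.85, 1.87 and 1.57 in adult (difference -0.40 ± 0.20 SE, adjusted p = 0.169).

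For 23 members the array carries more than 1 probe, and all 100 member probes were bright enough to test. Tested one by one over 48404 probes, 51 member probes were called lower and 1 higher, where 6.39% of all these probes were called lower. All probes of a gene had negative differences in 19 of the 23 genes, and the median range between the probes of a gene was 0.30. The other 4 genes, named after their values were seen, had probes of opposite sign. Of these, Mrpl4 differed by 0.17 by its brighter probe and by -0.84 by the other (mm9 chromosome 9, 20812990 to 20813049). Mrpl41 differed by 0.45 and -1.03, the latter by a probe more than a kilobase away on chromosome 2 (24829696 to 24829755). Mrpl22 differed by -1.39 by its junction probe and by 0.02 by the other. Mrpl9 differed by -0.55 by the probe of its reference transcript and by 1.08 by a dimmer probe, designed on a cDNA clone, which was the 1 probe called higher. The direction for Mrpl4, Mrpl41 and Mrpl9 and the size for Mrpl22 thus depend on the probe, and with the mean over probes Mrpl4 and Mrpl41 differed by -0.34 and -0.29.

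**Figure D4:**
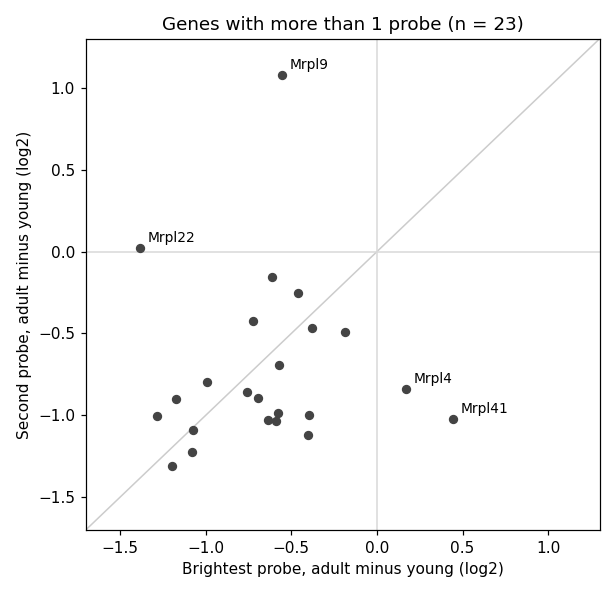
Difference adult minus young (log2) of the brightest probe (x axis) and of the next brightest probe (y axis) for the 23 genes with more than 1 probe; the grey diagonal marks equal values. In 19 genes the points lie below 0 on both axes, and Mrpl22, Mrpl9, Mrpl4 and Mrpl41 are the genes with probes of opposite sign.

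Samples within a group also differed. Over the members, adult replicate 3 was the lowest adult sample for 42 genes, adult replicate 1 for 22 and adult replicate 2 for 12. The lowest young sample was replicate 1 for 27 genes, replicate 2, the only sample of 2 months, for 29 and replicate 3 for 20. The median level of the members was 1.13, 1.26 and 1.37 on the young arrays and 0.13, 0.42 and -0.01 on the adult arrays, so the groups did not overlap. The median SD of a member was 0.17 among young and 0.29 among adult samples, and 58 of 76 members spread more among adult samples, against 48.2% of all genes. In Mrps22, a mitochondrial small subunit protein named after its values were seen, adult replicate 3 stood at -1.25 and the other adult samples at 0.90 and 0.58, against 1.49, 1.40 and 1.25 in young (adjusted p = 0.120).

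**Figure D5:**
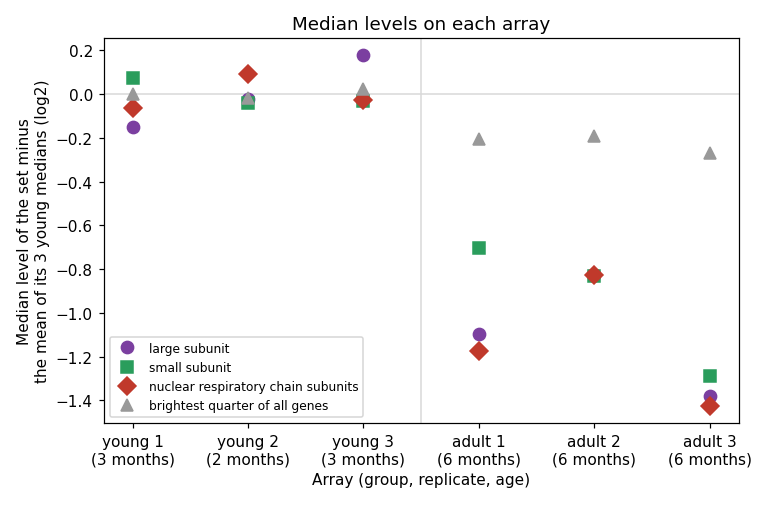
Median level on each array (x axis: group, replicate and age) of the large subunit, the small subunit, the nuclear respiratory chain genes and the brightest bin of all genes, each minus the mean of its 3 young medians (y axis, log2). Every adult median lies below every young median of the same set, and the brightest bin shifts least, from between 2.25 and 2.29 to between 2.00 and 2.08 in level.

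Proteins of the mitochondrial ribosome that carry other names gave similar values. A list of 8 such genes, with the membrane insertase Oxa1l, had 5 lower (62.5%), 0 higher and 3 not passing, and a median of -0.84. Over all genes 8.45% were called lower. Dap3, a GTP-binding protein of the small subunit, was 2.28-fold lower (limma adjusted p = 0.0271), and Mrpl57, listed as Mrp63 in the files, was 1.89-fold lower (adjusted p = 0.0240). Mrpl58, listed as Ict1, a ribosome-bound release factor that frees stalled ribosomes, was 1.86-fold lower (adjusted p = 0.0262).

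Genes that serve the mitochondrial ribosome had calls in 1 direction, against the 8.45% of all genes called lower. Of 14 mitochondrial translation factors, among them Mrpl58, 5 were lower (35.7%) and 0 higher (median -0.53, 11 negative), with Mtif3, an initiation factor, 2.12-fold lower (adjusted p = 0.0205) and Gfm1, the elongation factor that moves the ribosome along, 2.15-fold lower (adjusted p = 0.0244). Of 19 tested genes that charge mitochondrial transfer RNA with amino acids 5 were lower (26.3%) and 0 higher (median -0.41, 12 negative and 7 positive), with Vars2 2.26-fold, Yars2 1.80-fold and Lars2 1.66-fold lower. Of 28 genes of mitochondrial ribosome assembly and ribosomal RNA modification 2 were lower and 0 higher (median -0.30). These were Mettl17 (2.12-fold) and Mtg1, a GTPase of large subunit assembly (1.98-fold), and Ngrn differed by -0.73 ± 0.23 SE without passing (adjusted p = 0.0563). The share of calls in this assembly list, 7.14%, was near the 8.45% of all genes.

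Of 16 genes of mitochondrial transcription and RNA handling 4 were lower (25%, against 8.45% of all genes) and 0 higher (median -0.76). Tfb2m, a transcription factor of mitochondrial DNA, was 2.44-fold lower (adjusted p = 0.0251), Slirp, which stabilises mitochondrial messengers, 2.27-fold (adjusted p = 0.0358) and Hsd17b10, a subunit of mitochondrial RNase P, 1.83-fold (adjusted p = 0.0359). Polrmt, the mitochondrial RNA polymerase, differed by -0.10 ± 0.23 SE and Tfam, which packages mitochondrial DNA, by -0.40 ± 0.30 SE. Neither passed, and both were named after their values were seen. Of 13 regulators of mitochondrial biogenesis 1 was lower and 0 higher (median -0.23), a share of 7.69% that was near the 8.45% of all genes. The coactivator Ppargc1b was 1.60-fold lower (adjusted p = 0.0498). Esrra and Gabpa, transcription factors of respiratory genes, differed by -0.85 ± 0.29 SE (adjusted p = 0.0679) and -0.61 ± 0.28 SE (adjusted p = 0.128). The differences of the coactivators Ppargc1a (0.48 ± 0.23 SE) and Pprc1 (0.34 ± 0.36 SE) and of the transcription factor Sp1 (0.33 ± 0.22 SE) were positive and did not pass, and these 3 were named after their values were seen.

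The cytosolic ribosome is built from a separate set of nuclear genes. Of 76 cytosolic ribosomal protein genes tested, 6 fell and 70 did not pass, with differences negative in 73 and a median of -0.41. The share called, 7.89%, was near the 8.45% of all genes and below the 18.9% of the brightest bin. In 66 of the 76 (86.8%) all adult values lay below all young ones, against 61 of 76 mitochondrial members. The same was seen in 21.6% of all genes and in 47.5% of the brightest bin. Rpl27, Rplp1 and Rpl34 were 1.75-fold, 1.70-fold and 1.54-fold lower. Of 75 nuclear genes for respiratory chain subunits, 65 fell (86.7%) and 10 did not pass, with a median of -1.03. Ndufa4, Uqcrq and Ndufa10 were 4.01-fold, 3.05-fold and 2.49-fold lower. The differences between these lists and the members were not tested.

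Promoters of the members were looked at for letters that known regulators of mitochondrial genes bind, since the members moved together. RefSeq promoter sequences (GRCm38.p6, 250 bases before to 50 after the start) were at hand for 67 of the 76 genes. The letters CCGGAAG, bound by ETS factors such as GABPA, were found on either strand in 24 of 67 members (35.8%) against 14.7% of 14657 tested genes with a promoter, and the overlapping CGGAAGT in 17 (25.4%) against 10.8%. The core of the site of NRF1, with any base allowed at its centre, was found in 12 (17.9%) against 8.21%, and its palindromic form in 3. AAGATGGC, bound by YY1, was found in 12 (17.9%) against 4.06%. The E-box CACGTG was found in 5 (7.5%) against 9.84%. An ETS motif, the NRF1 core or the YY1 letters stood in 45 members (67.2%), against 26.5% of the tested genes with a promoter. Member promoters were richer in G and C, with a median of 58.3% against 52.7% over all promoters, and how far that sets the shares was not tested.

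The median difference was -0.96 in members with CCGGAAG and -0.86 in those without, -0.98 and -0.86 for the NRF1 core, and -0.91 and -0.89 for AAGATGGC. For CGGAAGT the order was the other way, with -0.85 and -0.90. The 5 members with CACGTG had a median of -1.30 against -0.88 in those without, and 4 of the 5 fell, while the 3 with the NRF1 palindrome had -0.55 against -0.90, and 1 of the 3 fell. None of these differences was tested. Of members with CCGGAAG, 16 of 24 fell, and of those without, 20 of 43. The 150 bases before the start are shown for 6 members with such letters, in capitals, and for 2 members whose adult mean was higher and in which none was found in this window. They were picked after the search, so the set shown says nothing on a link between the letters and the direction. Members with none of these letters in the promoter also fell, such as Mrps2 (2.11-fold), Mrpl40 (2.10-fold), Mrpl23 (2.02-fold) and Mrps5 (1.81-fold). Others with none, such as Mrpl1 and Mrpl28, did not pass. The direction of Mrpl41 and Mrps10 depends on the scaling, as given above. The stretches lie at chr11:120484487-120484636 (Mrpl12), chr16:84735245-84735394 (Mrpl39), chr8:71464776-71464925 (Mrpl34), chr11:58171514-58171663 (Mrpl22), chr17:46110854-46111003 (Mrps18a), chr13:73330859-73331008 (Mrpl36), chr2:24975099-24975248 (Mrpl41) and chr17:47369047-47369196 (Mrps10) of GRCm38.p6, on the minus strand for Mrpl39 and Mrpl41 and on the plus strand for the others. Capitals mark the NRF1 core in Mrpl12 and Mrpl39, CCGGAAG in Mrpl34 and Mrpl22, CCGGAAG followed by CGGAAGT in Mrps18a, and CACGTG and the reverse complement of AAGATGGC in Mrpl36.
Mrpl12: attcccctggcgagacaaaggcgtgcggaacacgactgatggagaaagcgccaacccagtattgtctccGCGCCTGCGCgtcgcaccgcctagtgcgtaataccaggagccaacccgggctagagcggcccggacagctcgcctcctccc
Mrpl39: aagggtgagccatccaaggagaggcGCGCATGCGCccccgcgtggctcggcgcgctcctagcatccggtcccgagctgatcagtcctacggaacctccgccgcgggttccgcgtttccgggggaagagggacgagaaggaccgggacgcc
Mrpl34: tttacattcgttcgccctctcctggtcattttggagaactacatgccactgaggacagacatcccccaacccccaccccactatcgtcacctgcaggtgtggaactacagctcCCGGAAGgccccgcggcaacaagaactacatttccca
Mrpl22: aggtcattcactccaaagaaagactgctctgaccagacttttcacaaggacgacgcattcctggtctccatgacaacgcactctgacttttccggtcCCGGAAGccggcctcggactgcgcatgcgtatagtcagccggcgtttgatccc
Mrps18a: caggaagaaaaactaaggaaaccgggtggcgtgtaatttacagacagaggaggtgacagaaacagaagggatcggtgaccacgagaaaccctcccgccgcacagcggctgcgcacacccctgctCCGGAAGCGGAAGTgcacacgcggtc
Mrpl36: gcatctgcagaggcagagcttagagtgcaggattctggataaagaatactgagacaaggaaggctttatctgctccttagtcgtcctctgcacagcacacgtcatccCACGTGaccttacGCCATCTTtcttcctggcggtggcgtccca
Mrpl41: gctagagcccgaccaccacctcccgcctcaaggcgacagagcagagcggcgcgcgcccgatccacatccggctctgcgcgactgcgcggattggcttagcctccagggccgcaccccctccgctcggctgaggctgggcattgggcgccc
Mrps10: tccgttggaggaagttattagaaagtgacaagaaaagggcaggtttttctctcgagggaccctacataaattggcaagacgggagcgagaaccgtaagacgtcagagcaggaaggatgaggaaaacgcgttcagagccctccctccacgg
Of these, Mrpl39 was at 0.04, -0.16 and 0.25 in young and -0.92, -0.86 and -1.23 in adult and fell (difference -1.05 ± 0.21 SE, limma adjusted p = 0.0262), and Mrpl12, Mrpl34, Mrpl22, Mrps18a and Mrpl36 fell as given above.

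Many of the promoters face another gene. In 22 of 67 members (32.8%) the start of a gene on the opposite strand lay within 500 bases upstream, against 13.2% of tested genes. One such pair joins both subunits: Mrps11 and Mrpl46 start 42 bases apart, and Mrpl46 differed by -1.33 ± 0.43 SE (adjusted p = 0.0596). Of the 18 tested neighbours that are not members, 3 were lower and 1 higher, where 8.45% and 20% of all genes were. The lower ones were Tcp1, Psma2 and Ndufb5, facing Mrpl18, Mrpl32 and Mrpl47. The higher one was Ighmbp2, facing Mrpl21, and none of these members passed. The median difference of the 18 neighbours was -0.33, and 8 of the 18 members facing them fell, with a median of -0.66. Mrps12 faces Sars2, a mitochondrial transfer RNA synthetase gene, which differed by -0.14 ± 0.29 SE, and Mrpl43 faces Twnk, the mitochondrial DNA helicase, which differed by 0.14 ± 0.75 SE. Mrpl47 faces Ndufb5, a subunit of respiratory complex I, and here the neighbour fell by 1.25 (adjusted p = 0.0194) while Mrpl47 itself did not pass (difference -0.57, adjusted p = 0.0750). These pairs were named after their values were seen.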

How the data were processed

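RNA of sorted satellite cells was amplified by a whole transcriptome method and Cy3-labelled according to the labels' protocols, with 1 single-colour Agilent array for each of the 6 samples, all on 1 slide. Per the file headers, the deposited intensity values come from Feature Extraction 10.7.3.1 and are a background-subtracted, detrended signal, with no scaling between arrays. The deposited series matrix holds log2 values with a median of 7.56, which differed by at most 0.000106 from normexp correction (offset 50) with quantile normalization of the mean and background signals. Levels computed here are the log2 signal minus the log2 of the array's 75th percentile, so each difference depends on that scaling.

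Of 62976 spots, 3671 controls and any outlier values were dropped, none was saturated, and repeated spots were averaged. A probe was kept if 3 or more arrays had it well above background and no more than 1 value was missing. The brightest probe represented each gene. Of 55681 probes, 26300 took their symbol through a RefSeq accession, 2044 by a current symbol and 355 by an older one. The other 26982 kept their array name, so not all genes tested are RefSeq genes. The comparison of the ages used lmFit and eBayes of limma 3.58.1 (R 4.3.3), adjusted over all genes at 0.05. The fit was checked on simulated arrays with independent noise for each gene and few changed genes. In these data 48.1% of all genes had an unadjusted limma p under 0.05. The check therefore does not show how the calls hold here. The number of arrays limits the precision.

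The members, lists and motifs were chosen with earlier results of these data known. Named are the largest falls of each subunit, the brightest members not called, members with known particular roles and the smallest p values of each list. Alternatives covered scaling, background correction, filters, probe choice, variance model, array weights, blocks, left-out arrays, subunit assignment and a 1.5-fold minimum.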

Additional observations from a re-analysis of the deposited data

How the results depend on the processing

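The members' median difference stayed negative under each alternative run, between -0.76 and -1.44, and 69 of the 76 members were negative in all fits that held them. Scaling moved the count of members called lower, from 40 to 68 with median scaling, where 27.5% of all genes were called lower in place of 8.45% and the members' median was -1.44. It was 31 with cyclic loess, 34 with quantile normalization and 33 with the percentile taken over probes that every array had above background. The array row block gave 26, and the replicate block gave 0, with 46 members at an unadjusted p under 0.05, and 0 calls over all genes in place of 9139. No pairing by number was seen, since samples with the same number deviated from their group means with correlations of -0.0024, -0.094 and -0.14. Members called higher numbered 2 with the series matrix values (Mrpl4 and Mrps10) and 1 among genes above the 75th percentile (Mrpl41), where conserved minus mitochondrial members differed by -0.17 in median. Without single arrays, calls over all genes ranged from 295 to 7686, members called lower from 0 to 27, and the large minus small median from -0.19 to 0.13. Over all genes, calls numbered 5653 with quantile normalization, 5274 with cyclic loess, 5971 with the row block and 5602 among genes above the 75th percentile, where fewer genes are tested. A slide block could not be fitted with 1 slide. With median scaling Mrpl4, Mrps10 and Mrpl41 turned to -0.37, -0.19 and -0.093, and with the mean over probes Mrpl4 and Mrpl41 turned to -0.34 and -0.29. For all these changes, the cause was not tested. Signal over background did not limit the members, which were all above it.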
